A study of Mus musculus with 9 samples.

Results

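The manchette and the sperm head shaping machinery were examined through 9 genes, Hook1, Rimbp3, Meig1, Spef2, Katnal1, Lrguk, Cep131, Sun3 and Spag4, taken by gene symbol from the 55414 genes listed for cultured mouse round spermatids (RS). All 9 were among the 25128 genes tested. RS had been sorted by FACS from the testes of Stra8-Tom mice, in which Stra8-iCre switches on a CAG-driven tdTomato reporter in the germ line. The mice were C57Bl/6, and the labels give the genotype as WT. The methods name adult animals and prepubertal ones without giving the age behind each library. Culture lasted 24 h in all 3 groups, and each medium held DMSO at 0.15%. The vehicle group received nothing else, the oxamate group received this lactate dehydrogenase inhibitor at 24 mM, and the group called both compounds here had the same dose of oxamate plus octyl-L-2HG at 0.3 mM, an ester that enters cells and releases L-2-hydroxyglutarate (L-2HG). Each group had 3 libraries of polyadenylated RNA, and library numbers run over the series (vehicle from 1 to 3, oxamate from 4 to 6, both from 7 to 9). The study describes triplicate incubations without saying whether they drew on separate animals, so the p-values measure the spread between libraries, which may be technical.

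The manchette is a transient skirt of microtubules that hangs from a ring around the nucleus of the elongating spermatid. It carries cargo toward the base of the forming tail, it is trimmed by severing enzymes as it moves down the nucleus, and it is tied to the nuclear envelope by complexes of SUN and nesprin proteins. Its assembly begins as round spermatids start to elongate, and mutations in its components are known from mice with misshapen sperm heads and short or absent tails.

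The libraries held between 32339533 and 39888396 counted reads. Oxamate library 4 stood apart from libraries 5 and 6, since its counts gave a chi-square over degrees of freedom of 23.3 against library 6, where libraries 5 and 6 gave 2.1. The other groups were uneven as well. Vehicle library 1 gave 11.9 and 11.3 against libraries 2 and 3, where libraries 2 and 3 gave 6.48. With both compounds the values were 3.03 (libraries 7 and 8), 7.1 (7 and 9) and 2.43 (8 and 9). As a check of the cell type label, 12 round spermatid markers were all detected, and their sum was 3370 to 3460 CPM (counts scaled to a common library total) in vehicle, 3200 to 3250 with oxamate and 2840 to 2890 with both compounds. These 12 did not move together: between both compounds and vehicle 8 were called lower (Tnp1, Tnp2, Prm1, Prm2, Gapdhs, Tssk1, Tssk2 and Catsper3), 2 higher (the acrosomal genes Acrv1 and Acr) and 2 were not called. Sums of 8 spermatocyte markers were 196 to 230, 196 to 212 and 191 to 197 in the same order, and those of 8 spermatogonial markers 17 to 19.1, 20.7 to 21.3 and 18.2 to 20.2. Markers of Sertoli, Leydig, peritubular myoid, macrophage and endothelial cells each summed to at most 7.95 CPM, and Fshr of Sertoli cells and Lyz2 of macrophages had no counts. In the pairwise tests edgeR called 3 genes of the marker lists of other cells. Cnn1 of the myoid list was lower than in vehicle, with means of 44.4 normalized counts in vehicle, 22.9 with oxamate and 15.5 with both compounds. With oxamate 2 of the 5 myoid markers had a log2 fold change above 0, Tagln (49.7 to 61.7) among them, and 3 below. Kdr of the endothelial list was higher, at 93.6, 129 and 129 (called in both comparisons with vehicle). Between both compounds and vehicle 2 of the 4 endothelial markers were above 0 and 2 below. Piwil1 of the spermatocyte list rose with oxamate from 1213 to 1450, where 4 of the 8 were above 0 and 4 below. The test of any difference among the 3 groups also called Gfra1 of the spermatogonial list (adjusted p = 0.0462 by edgeR). The part of these markers in the results that follow was not tested. In bulk RNA, fewer cells of a type and less RNA per cell cannot be told apart.

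Many genes that are switched on after meiosis answer to the activator CREM through the cyclic AMP response element (CRE). The element is shown here for the members that hold it or its half-site, and its part in their levels was not tested. RefSeq start sites in mouse build GRCm38.p6 were given for 8 of the 9 members, in 11 windows of 250 bases before a start. The full element TGACGTCA stood in the windows of Lrguk and Spag4, against 1.55% of 32851 mouse windows searched the same way on both strands. The shorter half-site TGACG, which is also part of the full element, stood in those of Cep131, Lrguk, Meig1 and Spag4, against 17.8%. The stretches that hold these letters are printed from 5′ to 3′ on the strand of the gene. Capitals mark the full element in Lrguk and Spag4 and the half-site in Meig1 and Cep131.
Lrguk: gccgcgggccaTGACGTCAgtctcctaggc
Spag4: ctggctcccagTGACGTCAcgggcgctctg
Meig1: aagggagtgctTGACGgtggggggtacttt
Cep131: gcgggccggcgTGACGgacagcggaggagg

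The Lrguk stretch is chr6:34029411-34029440 on the plus strand, with the element starting 26 bases before the start site. For Spag4 it is chr2:156065165-156065194 on the plus strand and 37 bases before the start, and for Meig1 chr2:3418713-3418742 on the minus strand and 134 bases before it. The Cep131 stretch is chr11:120086820-120086849 on the minus strand, 11 bases before the start. Of the other letters searched, the RFX half-site GTTGCC stood in the windows of Katnal1 and Lrguk (10.4% of all windows), CCAAT in those of Cep131, Hook1, Lrguk, Meig1 and Sun3 (33.8%) and TATAAA in none (12.4%). A match describes the letters in the window and is no evidence of binding. Spag4 and Lrguk shared the full element, and their levels are given separately below.

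Per kilobase of exon the 9 genes covered a wide range of levels in vehicle. Meig1 was the highest at 50078 ± 1909 normalized counts per kb (SD, n = 3), in the top percentile of tested genes, and Rimbp3 followed at 10048 ± 681.8. Sun3 came next at 2175 ± 88.9. Spag4 (1496 ± 79.1) and Hook1 (1492 ± 128) did not differ beyond their spread, and they exchanged places when the longest transcript was used as the length. Cep131 lay at 725 ± 43.5, Katnal1 at 410 ± 15.1, Spef2 at 351 ± 40.9 and Lrguk at 263 ± 5.07. Katnal1 and Spef2 were close neighbours in that order, with the lowest Katnal1 library of vehicle at 393 and the highest Spef2 library at 379. Lrguk was the lowest of the 9 in each group and yet above 79% of the tested genes, and the lowest raw count of any member in any library was 2197.

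**Figure D1:**
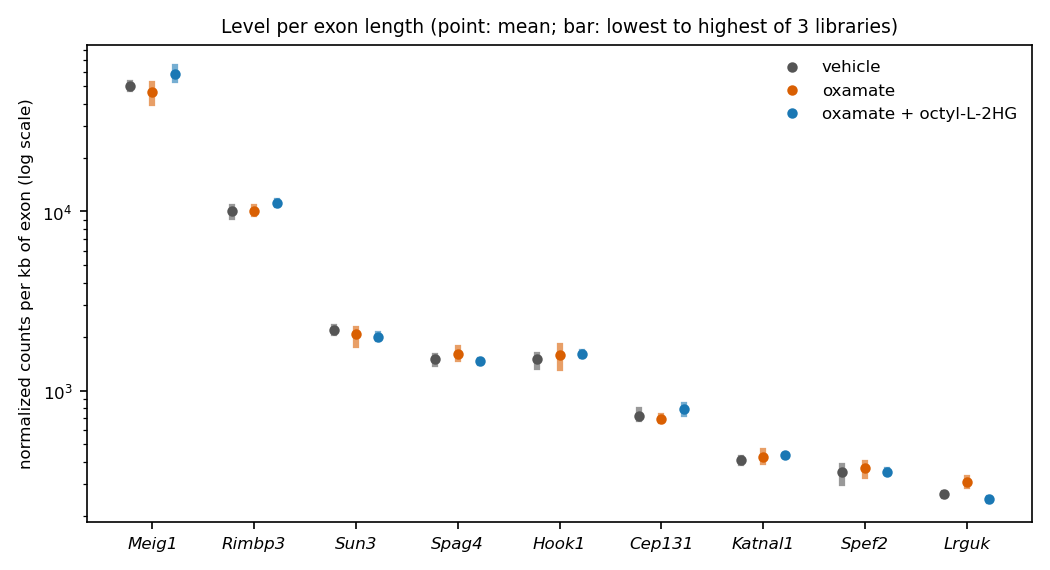
Normalized counts per kilobase of merged exons (log axis) for the 9 members, ordered by their vehicle mean, with the mean as a point and the range of 3 libraries as a bar for each group. Meig1 and Rimbp3 stood above the others in all 3 groups, and Lrguk was the lowest, at 263 in vehicle, 308 with oxamate and 247 with both compounds.

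Lrguk, which encodes a protein with leucine-rich repeats and a guanylate kinase domain needed for manchette function and tail growth, had the smallest adjusted p of the 9 members. Its normalized counts were 3104, 3208 and 3211 in the vehicle libraries, 3521, 3741 and 3903 with oxamate, and 2956, 3048 and 2924 with both compounds. Every oxamate library lay above every other library, and the libraries with both compounds lay below all vehicle libraries.

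With oxamate Lrguk rose by 17.6% (95% interval 7.22% to 28.9%), a log2 fold change of 0.23 ± 0.06 (SE) with an adjusted p of 0.0344 by edgeR (quasi-likelihood test, Benjamini-Hochberg adjusted over all genes). When octyl-L-2HG was added to oxamate it fell, with a log2 fold change of -0.35 ± 0.06 and an adjusted p of 0.00112 in the same edgeR test. Between both compounds and vehicle the log2 fold change was -0.11 (interval -0.25 to 0.02) with an adjusted p of 0.245 by edgeR, so no difference from vehicle was shown even though the groups did not overlap. Both steps share the oxamate libraries. The fall passed the threshold in all 15 alternatives, with adjusted p from 9.25e-06 to 0.0121 by edgeR or DESeq2. The rise passed in 5 of 15, and was lost with total counts, in a fit of only those groups and when any 1 library other than oxamate library 4 was left out (log2 fold change 0.20 to 0.27, adjusted p 0.00227 to 0.133 over all alternatives by edgeR or DESeq2).

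Lrguk also had a small spread. Its within-group SD on the log2 scale was 0.043, where the median was 0.105 over the 10715 well expressed genes (tested, averaging 100 or more normalized counts) and 5.6% of them had a smaller one. Its merged exons come to 12068 bases, longer than those of most genes of that level (percentile 94.2). Over 10696 such genes with a length, fold change with oxamate correlated with exon length at a Spearman rho of 0.312, and the 1070 longest had a median log2 fold change of 0.09 with oxamate, against 0.01 over all. In the comparison of both compounds with oxamate the longest genes had a median of 0.05, opposite in sign to that of Lrguk. These correlations are across genes that share libraries, and the part of length in the Lrguk values was not tested.

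Meig1, a small protein that acts in the manchette to load cargo for the tail, had 53260, 57432 and 54868 normalized counts in vehicle, 44640, 52937 and 56981 with oxamate, and 70504, 62845 and 59565 with both compounds. The 3 libraries with both compounds were above all 6 others, while oxamate and vehicle overlapped, with oxamate library 4 the lowest of the 9.

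Against oxamate alone Meig1 rose by 22.6% (95% interval 9.78% to 37%) with octyl-L-2HG, a log2 fold change of 0.29 ± 0.08 with an adjusted p of 0.0152 by edgeR (quasi-likelihood test, Benjamini-Hochberg adjusted over all genes). It passed in 13 of 15 alternatives, and not without library 7 (0.23, adjusted p = 0.127 by edgeR) or library 8 (0.31, adjusted p = 0.0504 by edgeR). Without oxamate library 4 the log2 fold change was 0.21 with an adjusted p of 0.0144 by edgeR. With oxamate the log2 fold change was -0.10 (interval -0.26 to 0.06, adjusted p = 0.583 by edgeR). Against vehicle the libraries with both compounds had a log2 fold change of 0.20 (0.04 to 0.36) and an adjusted p of 0.0798 by edgeR, which was 0.0051 without oxamate library 4, 0.00411 without the filter on low counts and 0.00747 in a fit of only those groups. The other 12 alternatives did not call it.

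**Figure D2:**
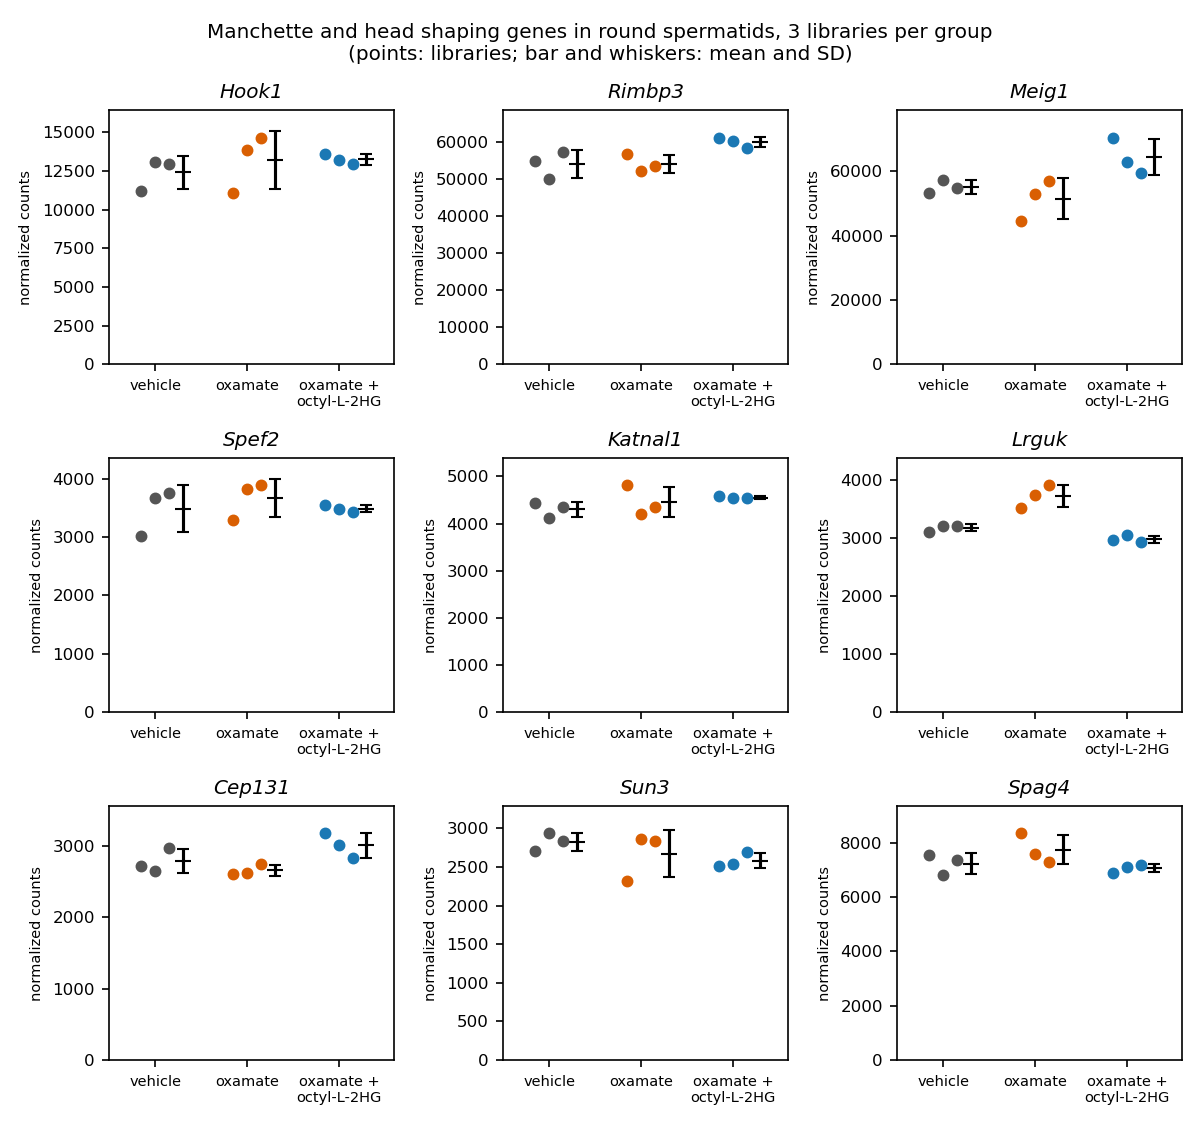
Normalized counts of each member, on axes that start at 0, in the 3 libraries of each group in order of library number, with the mean and SD beside them. Lrguk was highest in the 3 oxamate libraries and Meig1 in the 3 libraries with both compounds, while the groups of the other genes lay close together.

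Among the other linkers and cargo carriers, Hook1, whose mutation causes the abnormal spermatozoon head of azh mice, had 11189, 13077 and 12975 normalized counts in vehicle, 11089, 13844 and 14667 with oxamate, and 13621, 13213 and 12937 with both compounds. Vehicle library 1 and oxamate library 4 were both low, and the groups overlapped. The log2 fold change with oxamate was 0.09 (interval -0.08 to 0.26, adjusted p = 0.634 by edgeR), and without oxamate library 4 it was 0.20 with an adjusted p of 0.0334 by edgeR, so 1 library decided that call. Rimbp3, a HOOK1 partner on the manchette, had 54765, 50090 and 57323 in vehicle, 56760, 52118 and 53390 with oxamate, and 61202, 60269 and 58470 with both compounds. Its libraries with both compounds lay above all others, by a log2 fold change of 0.12 over oxamate (-0.01 to 0.25, adjusted p = 0.241 by edgeR) and 0.13 over vehicle (adjusted p = 0.17 by edgeR). Without oxamate library 4 the first of these was 0.16 with an adjusted p of 0.0372 by edgeR. Spef2, a protein of the tail and manchette that binds the transport protein IFT20, had 3019, 3675 and 3760 in vehicle, 3289, 3819 and 3885 with oxamate, and 3545, 3474 and 3430 with both compounds. Its groups overlapped in each comparison, with log2 fold changes of 0.08, -0.10 and -0.02 and adjusted p of at least 0.522 by edgeR.

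Katnal1, a katanin-like microtubule severing subunit, had 4430, 4125 and 4348 normalized counts in vehicle, 4811, 4200 and 4363 with oxamate, and 4592, 4534 and 4534 with both compounds. The vehicle libraries lay just under those of the latter group, by 0.06 on the log2 scale (interval -0.08 to 0.20, adjusted p = 0.607 by edgeR), while the oxamate libraries overlapped both. Cep131, a centriolar satellite protein also called AZI1, had 2721, 2651 and 2968 in vehicle, 2606, 2618 and 2747 with oxamate, and 3173, 3006 and 2832 with both compounds. The libraries with both compounds lay above the oxamate libraries, with a log2 fold change of 0.15 (0.01 to 0.29) and an adjusted p of 0.175 by edgeR. The difference of this gene between the other pairs of groups came with libraries that overlapped.

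Sun3 and Spag4 encode SUN proteins, which span the inner nuclear membrane and take hold of nesprins that reach the manchette. Sun3 had 2705, 2936 and 2833 normalized counts in vehicle, 2321, 2862 and 2835 with oxamate, and 2517, 2533 and 2690 with both compounds. It was lowest in oxamate library 4, and the vehicle libraries lay above those with both compounds, with a log2 fold change of -0.15 (-0.31 to 0.01, adjusted p = 0.195 by edgeR). Without oxamate library 4, that difference had an adjusted p of 0.0454 by edgeR. Spag4 had 7534, 6800 and 7351 in the vehicle libraries, 8348, 7600 and 7291 with oxamate, and 6887, 7101 and 7173 with both compounds. The libraries with both compounds lay below the oxamate libraries, with a log2 fold change of -0.16 (-0.30 to -0.02, adjusted p = 0.14 by edgeR), and it passed the threshold when the counts were scaled to the total (-0.20, adjusted p = 0.0412 by edgeR).

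Counted together, 1 of the 9 members was called with oxamate against vehicle, Lrguk (higher). By the same edgeR threshold 5.19% of all genes tested (3.97% higher and 1.22% lower) and 9.67% of the well expressed ones were called. Between both compounds and oxamate 2 of 9 were called, Meig1 higher and Lrguk lower, against 11.2% of all genes tested (3.18% higher and 8.06% lower) and 19.8% of the well expressed ones. Between both compounds and vehicle 0 of 9 were called by edgeR or by DESeq2, against 18% of all genes (7.48% higher and 10.6% lower) and 29.5%. The members' shares of 11.1% and 22.2% in the first pair of comparisons were 1 and 2 genes, near those of well expressed genes, and the share in the last was below it. At an unadjusted p under 0.05 there were 1, 4 and 1 members in the same order, against 17.3%, 23.6% and 30% of all genes. Groups did not overlap for 1, 5 and 5 members, against 27.3%, 41.1% and 51.8% of well expressed genes. The test of any difference among the 3 groups called Lrguk and Meig1 and no other member, against 19.8% of all genes and 33.5% of well expressed ones. Without oxamate library 4 the counts called were 2, 3 and 2, since Hook1, Rimbp3, Meig1 and Sun3 then passed in the comparisons named for them. In that fit the share called of all genes also rose, to 9.28%, 17.9% and 25.1%. Without library 7 or library 8 of the group with both compounds, 1 member was called against oxamate, where the share of all genes called fell to 5.64% and 5.91%.

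The median log2 fold change of the members was 0.06, -0.02 and 0.06, and that of well expressed genes 0.01, 0.01 and 0.03. The widest interval bound over the members was 0.48 on the log2 scale, so differences beyond that size lay outside every interval.

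**Figure D3:**
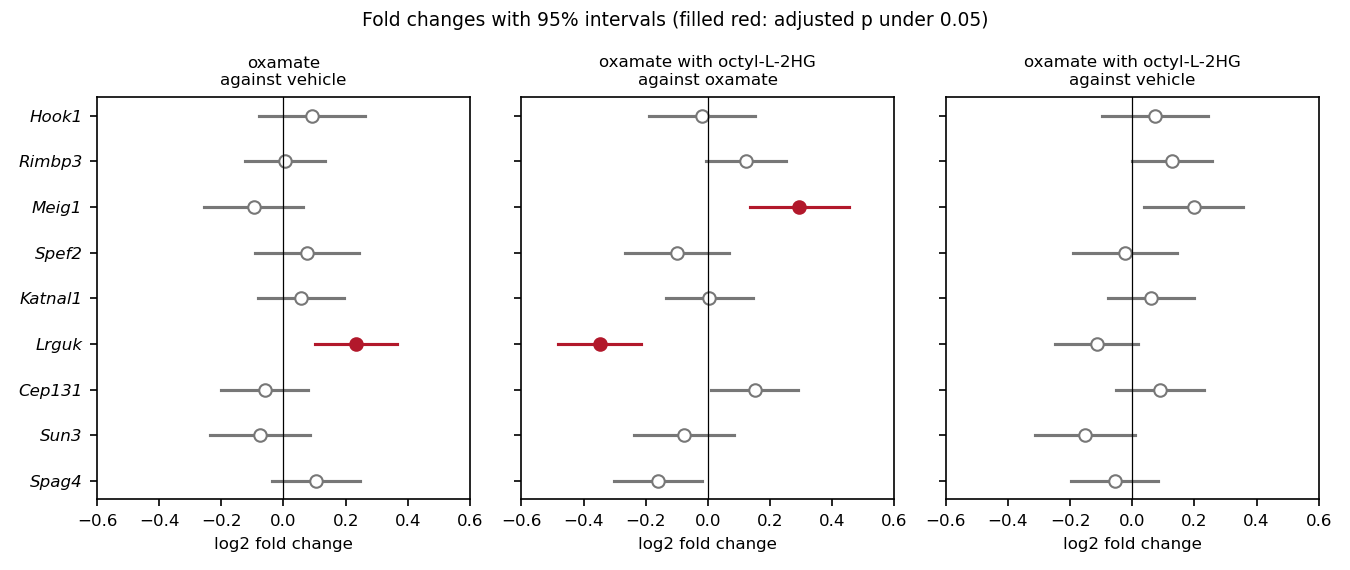
Log2 fold changes of the 9 members in the 3 comparisons, with 95% intervals as lines and filled red points for an adjusted p under 0.05. Lrguk stood at 0.23 with oxamate and -0.35 for both compounds against oxamate, and Meig1 at 0.29 in the latter.

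Oxamate library 4 had the lowest value of the 9 libraries for 4 members, Hook1, Meig1, Cep131 and Sun3, and the highest for Katnal1 and Spag4. Within the oxamate group it was lowest for 6 members. Among the libraries with both compounds, library 7 was highest for 6 members and library 9 lowest for 7. For the overlapping annotated neighbours, the counting's strand setting was not given in the sources used here, so reads on shared bases may belong to either gene. The largest share was 9.5% of the exonic bases of Sun3, with Gm11992 on the opposite strand, and those of Katnal1 and Hook1 were 6.1% (with Gm42791, same strand) and 3.8% (with 9530080O11Rik, opposite strand). For Cep131 it was 0.5%, with a miRNA gene. In the GENCODE annotation of build GRCm38 no other gene shared exonic bases with Lrguk, Meig1, Rimbp3, Spef2 or Spag4.

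The levels of Meig1 over the 9 libraries were most like those of Serf1 (Pearson r = 0.99) and Ccpg1os (r = 0.989), on log2 CPM values that share libraries. Serf1 averaged 18202 normalized counts in vehicle, 16574 with oxamate and 21315 with both compounds. The genes most like Lrguk were Pip5k1a, which makes a membrane phosphoinositide (r = 0.982), and 4933404G15Rik (r = 0.978). Pip5k1a averaged 690 normalized counts in vehicle, 900.2 with oxamate and 575 with both compounds.

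Of 107 other genes in 4 lists of manchette and head shaping proteins, all were tested. With oxamate 7 were called, 6 higher and 1 lower (6.54%). Between both compounds and oxamate 23 were called, 9 higher and 14 lower (21.5%), and between both compounds and vehicle 32, 19 higher and 13 lower (29.9%). The shares of all genes tested were 5.19%, 11.2% and 18%, and those of well expressed genes 9.67%, 19.8% and 29.5%. How many rose and how many fell depended on the scaling. With total counts 4 were higher and 2 lower with oxamate. For both compounds against oxamate it was 4 higher and 18 lower with total counts and 14 higher and 12 lower with DESeq2's size factors. For both compounds against vehicle it was 10 higher and 18 lower with total counts. Leaving out 1 library at a time gave 3 to 14, 10 to 26 and 18 to 48 called genes, with 14 and 48 reached without oxamate library 4, and 10 and 18 without library 7 or library 8. In the same fits the share of all genes called ranged from 2.68% to 9.28%, 5.64% to 17.9% and 12% to 25.1%, and was highest without oxamate library 4 in each comparison.

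The 34 genes of transport along the manchette gave 2 higher and 0 lower with oxamate, 5 higher and 2 lower for both compounds against oxamate, and 8 higher and 2 lower against vehicle. The shares of the list called were 5.88%, 20.6% and 29.4%. Those of all genes tested were 5.19%, 11.2% and 18%, and those of well expressed genes 9.67%, 19.8% and 29.5%. With total counts the numbers for the last 2 comparisons were 2 higher and 3 lower, and 3 higher and 2 lower. Without the filter on low counts they were 13 higher and 1 lower, and 18 higher and 1 lower, and in fits of only the groups compared 8 higher and 2 lower, and 16 higher and 2 lower. Without 1 library the number called was 1 to 9 against oxamate, with 1 without library 7, and 3 to 19 against vehicle, with 19 without oxamate library 4. Kif17, a kinesin-2 motor that moves CREM's partner ACT out of the nucleus in spermatids, went from 17442 to 20171 normalized counts in vehicle to 23367 to 25866 with oxamate and 20181 to 21480 with both compounds. It rose with oxamate (log2 fold change 0.35 ± 0.07, adjusted p = 0.0025 by edgeR) and fell when octyl-L-2HG was added (-0.24, adjusted p = 0.0223 by edgeR, lost without library 5, 7, 8 or 9). Kif3b, another kinesin-2 motor subunit, was higher in each step, with 13465 to 14356 counts in vehicle, 15642 to 16165 with oxamate and 18572 to 19390 with both compounds. Its 0.43 ± 0.06 between both compounds and vehicle had an adjusted p of 2.01e-05 by edgeR and held without each library in turn, whereas its 0.20 with oxamate (adjusted p = 0.0462 by edgeR) held in 1 of 9 and its 0.23 for both compounds against oxamate (adjusted p = 0.0136 by edgeR) in 6 of 9. Ccdc38, a manchette protein needed for tail formation, rose from 30528 to 40435 mean counts when octyl-L-2HG was added to oxamate (0.38 ± 0.07, adjusted p = 0.00167 by edgeR). Dync1h1, the dynein heavy chain, was higher with both compounds than in vehicle (0.37 ± 0.07, adjusted p = 0.00119 by edgeR).

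Mns1, Ift74 and Ccdc181, structural and transport proteins of the tail, were higher with both compounds than with oxamate by 0.32, 0.30 and 0.29 on the log2 scale, calls that were lost with total counts and without library 7 or library 8. Mns1 was also lost without library 4 or library 5, and Ift74 without library 4 or library 9. Their lowest values without 1 library were 0.22, 0.19 and 0.20. Ccdc146, higher by 0.28 than in vehicle, was not called in 4 of 9 fits with a library left out.

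The 28 genes of microtubule severing and dynamics gave 2 higher with oxamate, 2 higher for both compounds against oxamate and 6 higher against vehicle, and none lower in these. The shares of the list called were 7.14%, 7.14% and 21.4%. Those of all genes tested were 5.19%, 11.2% and 18%, and those of well expressed genes 9.67%, 19.8% and 29.5%. Vash2, a tubulin carboxypeptidase that removes the last tyrosine of alpha-tubulin, rose from 8225 to 11359 mean normalized counts with oxamate (0.47 ± 0.06, adjusted p = 7.79e-05 by edgeR), held without each library, and stood at 10416 with both compounds. Ttll5, a tubulin polyglutamylase, averaged 18748 in vehicle, 19984 with oxamate and 24437 with both compounds, and rose when octyl-L-2HG was added (0.26 ± 0.06, adjusted p = 0.00832 by edgeR, lost without library 7). Spast, the severing enzyme spastin, was higher by 0.23 in the same comparison (adjusted p = 0.0275 by edgeR), a call lost without 4 of the 9 libraries. Clasp2 and Mapre1, which bind microtubule plus ends, were higher with both compounds than in vehicle by 0.48 and 0.33 (adjusted p = 0.00492 and 0.0113 by edgeR), where the first was lost without library 8 and the second without library 9. Clasp2 was higher by 0.42 with oxamate, a call lost without 6 of the 9 libraries. With total counts the list gave 1 higher and 2 lower for both compounds against oxamate, and 4 higher and 2 lower against vehicle. Without 1 library the number called was 1 to 5 with oxamate, 0 to 4 for both compounds against oxamate (0 without library 7) and 3 to 10 against vehicle. Katna1 and Katnal2, katanin relatives of Katnal1, were not called in any comparison, with log2 fold changes between -0.10 and 0.16.

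In the nuclear envelope list, 2 of 18 genes were higher with oxamate, 1 was higher and 4 were lower for both compounds against oxamate, and 2 were higher and 3 lower against vehicle. The shares of the list called were 11.1%, 27.8% and 27.8%. Those of all genes tested were 5.19%, 11.2% and 18%, and those of well expressed genes 9.67%, 19.8% and 29.5%. With DESeq2's size factors the second comparison gave 2 higher and 2 lower. Without 1 library the number called was 0 to 4, 1 to 6 and 3 to 6, with 1 in the second comparison without library 5. In fits of only the groups compared 0 were called with oxamate, and 1 higher and 2 lower for both compounds against oxamate. Sun1, a paralog of Sun3 and Spag4 that helps hold telomeres in meiosis, had 3718 to 4326 normalized counts in vehicle, 4349 to 4402 with oxamate and 3507 to 3622 with both compounds. It fell when octyl-L-2HG was added (-0.32 ± 0.07, adjusted p = 0.00329 by edgeR) and held without each library. Syne2, which encodes nesprin-2, rose at each step, from a mean of 4585 to 5408 with oxamate (0.24, adjusted p = 0.0326 by edgeR, lost in 7 of 9 fits without a library) and to 6381 with both compounds (0.21 over oxamate, adjusted p = 0.0393 by edgeR, lost in 5 of 9). Against vehicle the latter was 0.46 ± 0.07 (adjusted p = 3.99e-05 by edgeR). Lemd1, a LEM domain protein, fell with both compounds by 0.34 against oxamate, a call lost without library 5 or library 7, and by 0.44 against vehicle. Lmnb2, a B-type lamin, was higher by 0.24 with oxamate, Spata46 had a log2 fold change of -0.29 for both compounds against oxamate, and Sun2 was higher by 0.46 with both compounds than in vehicle. Those calls were lost in 6, 6 and 5 of the 9 fits without a library.

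The list of the acroplaxome and perinuclear theca, the plate and casing that fix the acrosome to the nucleus, gave 0 higher and 1 lower of 27 with oxamate, 1 higher and 8 lower for both compounds against oxamate, and 3 higher and 8 lower against vehicle. The shares of the list called were 3.7%, 33.3% and 40.7%. Those of all genes tested were 5.19%, 11.2% and 18%, and those of well expressed genes 9.67%, 19.8% and 29.5%. Against oxamate the list gave 1 higher and 4 lower without library 5 or library 8. It gave 5 higher and 8 lower with another low count filter (filterByExpr) or the DESeq2 test. With oxamate 3 were lower without oxamate library 4. Ccin, or calicin, a basic theca protein, had 5952 to 6355 normalized counts in vehicle, 5208 to 5523 with oxamate and 3750 to 3788 with both compounds, in groups that did not overlap. It fell by 0.52 on the log2 scale when octyl-L-2HG was added (SE 0.06, adjusted p = 1.67e-05 by edgeR) and by 0.72 against vehicle (adjusted p = 1.3e-07 by edgeR). The actin-related genes Actrt2 and Actl9 fell when octyl-L-2HG was added by 0.57 and 0.36 on the log2 scale (adjusted p = 2.55e-05 and 0.00399 by edgeR) and held without each library. Actrt3 fell from 496 to 361 mean counts with oxamate (-0.45 ± 0.10, adjusted p = 0.00666 by edgeR) and held without each library. It stood at 274 with both compounds, lower than with oxamate by a log2 fold change of -0.43 (adjusted p = 0.0101 by edgeR), a call lost without library 5, 7 or 9.

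The median log2 fold change of that list was 0.01 for both compounds against oxamate, with 15 of 27 genes above 0, so the fall was of a subset and not of the list. Among the round spermatid markers, the transition protein and protamine genes Tnp1, Tnp2, Prm1 and Prm2, which package the sperm genome, fell in all 3 comparisons. Tnp2 went from a mean of 8154 in vehicle to 6511 with oxamate and 4919 with both compounds, and Prm1 from 4915 to 3591 and 2919. Their edgeR adjusted p-values were between 2.11e-07 and 0.00607 for Tnp2 and between 1.11e-07 and 0.0027 for Prm1. Other markers went the opposite way: Acrv1 rose from a mean of 9015 in vehicle to 10854 with both compounds (adjusted p = 0.0103 by edgeR) and Acr from 11621 to 13617 (adjusted p = 0.0284 by edgeR). Izumo1, which binds the egg, was not called in any comparison. The part of these markers in the theca values was not tested.

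**Figure D4:**
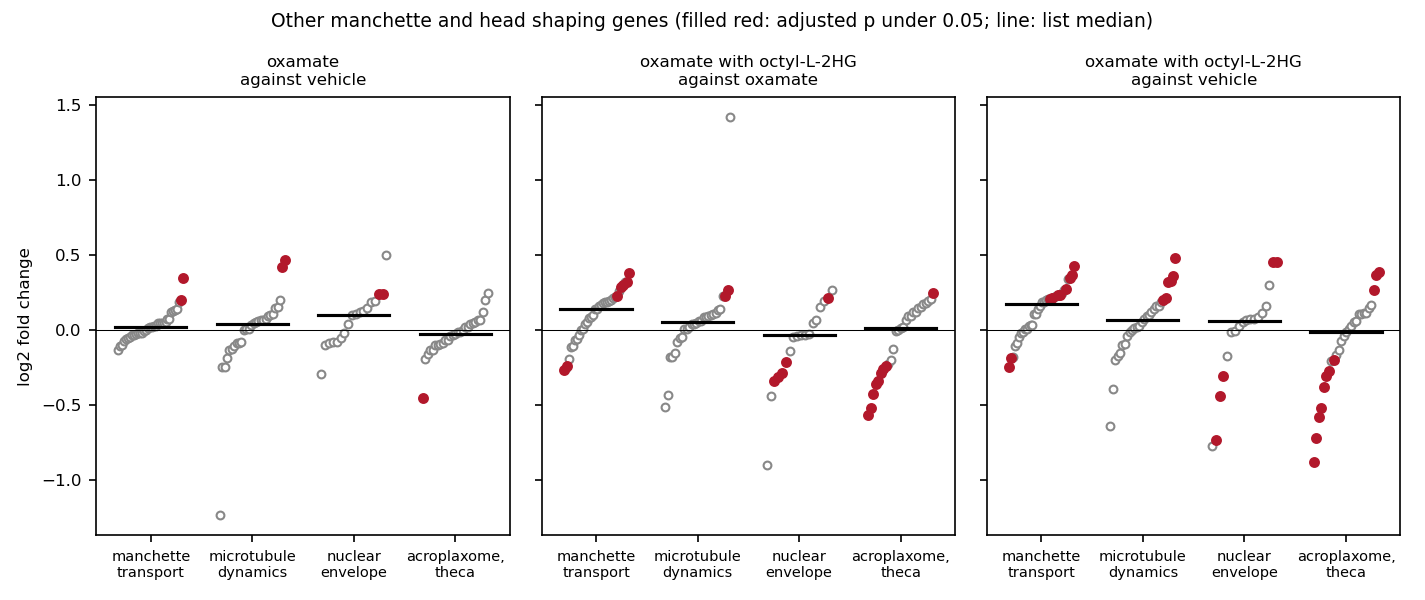
Log2 fold changes of the 107 other genes by list, as 1 point each, in the 3 comparisons, with genes of an adjusted p under 0.05 in filled red and the list median as a line. In the comparison of both compounds with oxamate, the list of the acroplaxome and theca held 8 of the 14 genes that fell. That list has 27 of the 107 genes, and 8.06% of all genes tested were called lower in this comparison.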

How the data were processed

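RNA of RS in 9 libraries, 3 per group, was used. The authors deposited the count of reads per gene, made with cutadapt 2.10 trimming, TopHat2 2.1.1 alignment to GRCm39 with Ensembl annotation and HTSeq 2.01, and a normalized signal per gene, the count divided by a DESeq2 1.36.0 size factor. The strand setting of the counting was not given in the sources used here, and the labels and methods name different instruments. No column of values went unused (0).

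Genes whose counts summed to 10 or more were tested in R 4.3.3 with edgeR 4.0.16 (TMM, all libraries in one robust quasi-likelihood fit, Benjamini-Hochberg over all genes tested, threshold 0.05). The members, lists and motifs were chosen with earlier results of these data known. Named genes are the 9 members, up to 4 called genes per list and comparison averaging 100 or more normalized counts with the largest change, and the 2 genes most like each called member. Katna1, Katnal2 and the values of Kif3b, Kif17 and Syne2 for both compounds against oxamate were named after their values were seen. Some genes of the lists are not reported here by name. Levels per kilobase used GENCODE exon lengths matched by gene identifier, and promoter letters came from RefSeq, build GRCm38.p6. DESeq2 1.42.0 was an alternative. In simulated counts for oxamate against vehicle over 24621 genes, the test recovered 56 of 100 genes raised 1.3-fold and 50 of 100 lowered, with 5 unchanged genes called. The changed genes were drawn from those averaging 100 or more normalized counts. No simulated library was made to stand apart as oxamate library 4 did, so the rates may not hold for these libraries.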

Additional observations from a re-analysis of the deposited data

How the results depend on the processing

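No paired analysis was run. Library numbers run over the series, so they do not say whether libraries of different groups came from the same cell preparation. Of 405 values of single members under the alternatives, 386 kept their side of the threshold (22 of them, none called, with another sign), 12 lost a call, 7 gained one and 0 calls reversed. Members called with oxamate against vehicle were 1 in the report, 0 with total counts, 0 at an adjusted p under 0.01, 0 in a fit of only those groups, and 0 to 2 without each library. For both compounds against oxamate there were 2, with 1 at an adjusted p under 0.01 and 1 to 3 without each library. For both compounds against vehicle there were 0, with 1 without the filter, 1 in a fit of only those groups and 0 to 2 without each library. For any difference there were 2, with 1 under total counts, 1 at 0.01 and 1 to 4 without each library. Of the 107 list genes, 7 were called with oxamate, 3 at 0.01, 4 in a fit of only those groups and 3 to 14 without each library (14 without oxamate library 4, 3 or 4 without library 1, 2, 5, 6, 8 or 9). For both compounds against oxamate 23 were called, 9 at 0.01 and 10 to 26 without each library (11 without library 5, 10 without library 7 or library 8, 14 without library 9). Against vehicle 32 were called, 17 at 0.01 and 18 to 48 without each library. The cause was not tested. Total count scaling set the median log2 fold change of all genes at -0.03, -0.08 and -0.11, against -0.01, -0.04 and -0.05. With 3 libraries per group, 56 of 100 raised and 50 of 100 lowered genes were recovered at the 1.3-fold change that was simulated for oxamate against vehicle. These were well expressed genes, in simulated libraries of which none was made to stand apart.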
